A study of Mus musculus with 2 samples.

Results

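The Sox B1, B2 and C genes encode transcription factors that share an HMG-box DNA-binding domain, and 8 of them were followed here in embryonic mouse forebrain with and without deletion of the histone variant H2A.Z. They were chosen by name: Sox1, Sox2 and Sox3 for Sox B1, Sox14 and Sox21 for Sox B2, and Sox4, Sox11 and Sox12 for Sox C. All 8 are among the 19720 genes of the deposited table. A gene is called measured when its reads in the 2 libraries came to 20 or more, which held for 14366 genes and for 7 of the 8 Sox genes. Sox14, with 19 reads, fell short and is given separately.

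RNA from 2 genotypes on a C57BL/6 background was sequenced, with 1 library each: H2A.Z conditional knockout mice (H2AZcKO, below cKO) and mice with floxed H2A.Z alleles (H2AZfl/fl, below fl/fl), which serve as the control although the sample title calls them WT. Embryonic day 16 is given in the titles and design text but day 12 in a characteristics field, which leaves the age unsettled. Tissue is labelled telencephalic and the extraction protocol names cerebral cortex. The sources used here do not give the Cre driver, the exons that are floxed or whether animals were pooled. The design text speaks of triplicates, but 1 count column per genotype was analysed. Each difference below is therefore between 1 cKO and 1 fl/fl library and has no replicate check. The libraries held 9028523 reads in genes for cKO and 8474545 for fl/fl. H2afz, the targeted gene, had 535 reads in the cKO library and 1152 in the fl/fl library, 2.24-fold lower in cKO. Reads from exons outside the deleted part would remain in cKO, but whether these account for the 535 reads was not tested. Markers of dorsal radial glia, the progenitors of the labelled tissue, were measured for all 23 genes listed. Markers of neighbouring regions, choroid plexus and meninges differed between the libraries, with values given beside the Sox results below.

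In neural development the Sox B1 proteins keep progenitors undifferentiated and are active along the whole neural tube. Sox B2 proteins act largely as repressors and oppose Sox B1 at shared target sites, and Sox14 is restricted to certain interneuron and brainstem populations, among them GABAergic neurons of the thalamus. Sox C proteins become abundant as progenitors leave the cell cycle and activate genes of immature neurons. H2A.Z replaces the canonical histone H2A in nucleosomes beside many transcription start sites.

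Sox1, Sox2, Sox4 and, less far, Sox12 were higher in the cKO library, Sox3, Sox21 and Sox11 stayed within counting error of no difference, and Sox14 was read in the cKO library alone. When the libraries were scaled to pan-neuronal genes, the log2 ratio of Sox12 was -0.026, so its difference depends on the scaling. No interval was computed for that value. The DNA just before the start of both Sox B2 genes, of Sox4 and Sox11, and of Sox2 is shown because these are pairs of close relatives whose ratios differed, with Sox2 as a Sox B1 gene that was higher in cKO. Each line holds the 250 bases before the RefSeq transcript start, on the strand of the gene, from RefSeq on GRCm38.p6. Capitals mark matches on either strand to any of 5 motifs. The GC box was searched as GGGCGG and the CCAAT box by its own letters. The TATA box was searched as TATAAA. The core sequence that Sox proteins bind was searched as ACAAAG and, as an alternative core, as ACAATG.
Sox14: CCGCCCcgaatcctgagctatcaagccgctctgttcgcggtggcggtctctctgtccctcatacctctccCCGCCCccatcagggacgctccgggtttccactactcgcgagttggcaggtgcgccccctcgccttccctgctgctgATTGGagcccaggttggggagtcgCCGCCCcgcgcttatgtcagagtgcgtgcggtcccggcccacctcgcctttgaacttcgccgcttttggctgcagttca
Sox21: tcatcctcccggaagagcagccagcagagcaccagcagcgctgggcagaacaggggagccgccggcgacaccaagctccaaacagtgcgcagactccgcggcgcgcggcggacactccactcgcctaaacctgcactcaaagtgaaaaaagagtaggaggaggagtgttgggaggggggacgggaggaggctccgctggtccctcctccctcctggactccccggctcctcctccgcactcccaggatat
Sox4: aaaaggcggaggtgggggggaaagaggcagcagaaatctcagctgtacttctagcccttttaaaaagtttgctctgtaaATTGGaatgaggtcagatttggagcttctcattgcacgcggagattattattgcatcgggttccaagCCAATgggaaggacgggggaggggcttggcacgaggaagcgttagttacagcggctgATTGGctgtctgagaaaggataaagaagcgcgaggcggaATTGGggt
Sox11: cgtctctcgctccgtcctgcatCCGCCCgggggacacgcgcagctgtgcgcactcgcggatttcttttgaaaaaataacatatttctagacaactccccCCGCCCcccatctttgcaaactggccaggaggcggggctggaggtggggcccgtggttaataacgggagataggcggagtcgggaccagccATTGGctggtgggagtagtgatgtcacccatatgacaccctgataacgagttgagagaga
Sox2: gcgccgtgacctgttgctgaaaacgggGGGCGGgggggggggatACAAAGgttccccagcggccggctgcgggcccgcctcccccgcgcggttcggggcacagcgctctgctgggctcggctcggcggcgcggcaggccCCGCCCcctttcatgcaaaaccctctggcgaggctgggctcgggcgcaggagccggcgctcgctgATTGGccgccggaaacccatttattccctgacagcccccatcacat

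These windows lie on GRCm38.p6 at chr9:99876171-99876420 on the minus strand for Sox14, chr14:118237031-118237280 on the minus strand for Sox21, chr13:28953700-28953949 on the minus strand for Sox4, chr12:27342719-27342968 on the minus strand for Sox11 and chr3:34649745-34649994 on the plus strand for Sox2. RefSeq windows were found for 7 of the 8 genes, and the remaining gene is Sox3. Of the 32851 windows of this length in the RefSeq table, the GC box occurs in 32.7%, CCAAT in 33.8%, TATAAA in 12.4% and a Sox core in 25.2%. The Sox14 window holds 3 GC boxes and 1 CCAAT box, and the Sox21 window holds none of the 5 motifs. The Sox4 window holds 4 CCAAT boxes and no GC box, whereas the Sox11 window holds 2 GC boxes and 1 CCAAT box. The Sox2 window holds 2 GC boxes, 1 CCAAT box and 1 Sox core, and no motifs overlap in these 5 windows. The Sox4 window runs 14 bases into the GENCODE transcript of Sox4. For Sox2 and Sox11 the RefSeq start lies before the GENCODE start, at 34649995 against 34650405 and at 27342718 against 27342574. Their windows therefore do not reach the GENCODE gene models described below. The CpG count was above the table's median of 6 in all 7 windows, at 11 for Sox4, 17 for Sox21 and Sox11, 23 for Sox14, 27 for Sox2, 29 for Sox1 and 35 for Sox12. A match describes the letters of the window and is not evidence of a bound site, and H2A.Z occupancy was not measured in these files.

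All 8 genes had a single uninterrupted exon block in the GENCODE M21 annotation, and the deposited table gives each the HMG box as its Pfam domain. Their positions in the table are identical to that annotation, on GRCm38. Sox1 spans 12395295 to 12400126 on chromosome 8, Sox2 34650405 to 34652461 on chromosome 3, and Sox3 60891366 to 60893430 on chromosome X. Sox14 spans 99874106 to 99876170 on chromosome 9 and Sox21 118233232 to 118237030 on chromosome 14. Sox4 spans 28948919 to 28953713 on chromosome 13, Sox11 27334264 to 27342574 on chromosome 12, and Sox12 152393611 to 152398063 on chromosome 2. Their exon lengths run from 2057 bases for Sox2 to 8311 bases for Sox11.

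The family's similarity bears on how surely short reads can be assigned, so the longest identical stretches between transcripts were searched. Among the 7 pairs within a Sox group the longest exact run was 20 to 48 bases, and among the 21 pairs across groups 13 to 38 bases. The run shared by Sox4 and Sox11 and the run shared by Sox1 and Sox3 are the 2 longest, and both lie in coding sequence.
Sox4 and Sox11: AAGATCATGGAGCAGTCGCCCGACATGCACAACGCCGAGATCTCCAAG
Sox1 and Sox3: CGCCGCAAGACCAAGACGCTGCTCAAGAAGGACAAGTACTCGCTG

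In these lines every base is shared, so every letter is a capital. The run lies at chr13:28952749-28952796 (minus strand) in Sox4 and chr12:27342166-27342213 (minus strand) in Sox11. The other run lies at chr8:12396727-12396771 (plus strand) in Sox1 and chrX:60892741-60892785 (minus strand) in Sox3. How long the reads were, and how reads matching several genes were handled, the sources used here do not say. Outside such runs the genes can be told apart by sequence.

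Levels between genes are compared as CPM (a gene's reads divided by the size of the library, here with TMM scaling) per kb of exon, and ratios between libraries as log2 of cKO over fl/fl. Intervals are exact 95% intervals that cover counting error only. PCR copies cannot be recognised in these tables, so the intervals are a lower limit on the error.

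Sox11, a Sox C factor of immature neurons, had the highest level per length in both libraries. It reached 203 CPM per kb in the cKO library and 199 in the fl/fl library. By raw reads it was the 22nd most abundant of all genes in cKO and the 21st in fl/fl. Sox4 followed at 144 CPM per kb in cKO and 119 in fl/fl. Sox2 stood at 80.6 and Sox12 at 77.6 CPM per kb in the cKO library, with intervals that overlap. In the fl/fl library Sox2 was at 65.4 and Sox12 at 69.9 CPM per kb, again with overlapping intervals. Sox1 and Sox3 formed the next pair. They were at 30.6 and 28.4 CPM per kb in cKO with overlapping intervals, whereas in fl/fl Sox1 at 23.5 (22 to 25) lay below Sox3 at 30 (27.5 to 32.7). Sox21 was at 9.24 CPM per kb in cKO and 9.76 in fl/fl, and Sox14 at 1.03 and 0. These levels rest on the annotated exon lengths.

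**Figure D1:**
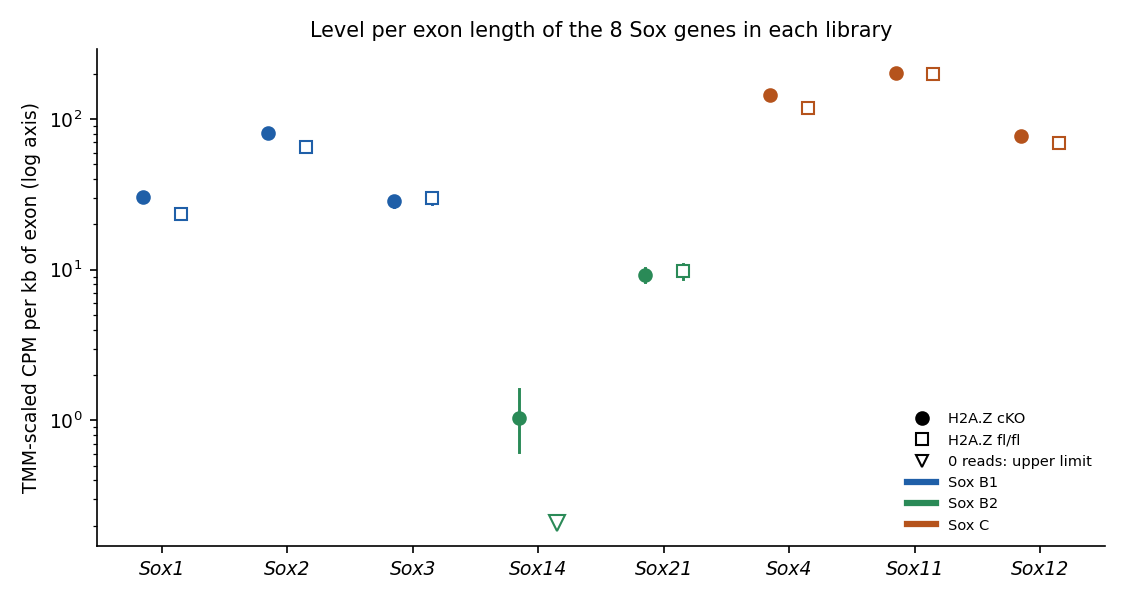
Level of each of the 8 Sox genes in TMM-scaled CPM per kb of exon, on a log axis, with filled circles for the H2A.Z cKO library, open squares for the H2A.Z fl/fl library and bars for exact 95% Poisson intervals. The Sox C genes and Sox2 lie highest in both libraries, and the open triangle is the upper limit of 0.208 CPM per kb for Sox14, which had 0 reads in the fl/fl library.

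Within Sox B1, Sox1 and Sox2 were higher in the cKO library. Sox1, which marks neural progenitors from the earliest neural plate and is kept in some ventral forebrain neurons, had 1318 reads in cKO and 974 in fl/fl, or 148 and 114 CPM. Its log2 ratio was 0.38 (0.26 to 0.50), 30.1% higher. Sox2, the progenitor factor required for neural stem cell maintenance, had 1479 reads in cKO and 1154 in fl/fl, or 166 and 135 CPM. Its log2 ratio was 0.30 (0.19 to 0.41), 23.2% higher. These ratios exceed counting error but stay under 1.5-fold. Scaled to the summed pan-neuronal genes, which moves the median of all measured genes to -0.18, they were smaller, at 0.20 for Sox1 and 0.12 for Sox2. Scaled to the summed radial glia genes, which moves that median to 0.085, they were larger, at 0.46 for Sox1 and 0.38 for Sox2. Both scalings were added after the data were seen.

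Sox3, the X-linked Sox B1 gene, had 524 reads in cKO and 532 in fl/fl, or 58.7 and 62 CPM. Its log2 ratio was -0.078 (-0.26 to 0.098), so no difference was detectable at this depth. The ratios of the 3 genes can be set against each other within the same libraries, and such a difference does not depend on the scaling. The log2 ratio of Sox1 lay 0.46 above that of Sox3 (0.24 to 0.67), and that of Sox2 lay 0.38 above it (0.17 to 0.59). Sox1 and Sox2 differed by 0.078 (-0.087 to 0.24), within counting error. Of 12 such differences computed here, both with Sox3 kept their sign when the intervals were widened for 12 comparisons (0.15 to 0.77 and 0.074 to 0.69).

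The shares of the Sox B1 reads show the same contrast most clearly in Sox3. Sox3 supplied 15.8% of the group's reads in cKO (14.6 to 17.1, exact Clopper-Pearson) and 20% in fl/fl (18.5 to 21.6). Sox1 supplied 39.7% in cKO (38 to 41.4) and 36.6% in fl/fl (34.8 to 38.5), and these intervals overlap slightly. The share of Sox2 was 44.5% in cKO (42.8 to 46.2) and 43.4% in fl/fl (41.5 to 45.3), also with overlapping intervals. Summed, the group had 3321 reads in cKO and 2660 in fl/fl, a log2 ratio of 0.26 (0.19 to 0.34). It was 0.087 under the pan-neuronal scaling and 0.35 under the radial glia scaling. Because Sox3 lies on chromosome X, the sex-linked RNAs of the libraries were looked at after its value was seen. Xist, made from the inactive X chromosome, had 20857 reads in cKO and 22095 in fl/fl, and the Y-linked Kdm5d 21 and 16 reads. Uty, also Y-linked, had 4 reads in cKO and 1 in fl/fl. Both libraries thus held reads of both kinds, though few of the Y-linked genes, and their part in the Sox3 value was not tested.

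Sox1 and Sox2 each sit inside a long non-coding RNA gene of the same strand, and these companions give a further reading at both loci. Sox1ot, from 12385771 to 12436768 on chromosome 8, had 764 reads in cKO and 601 in fl/fl, a log2 ratio of 0.29 (0.13 to 0.45). Sox2ot, from 34104270 to 34682619 on chromosome 3, had 485 reads in cKO and 424 in fl/fl, a log2 ratio of 0.14 (-0.054 to 0.33). In the annotation neither companion shares an exon base with its Sox gene. The ratio of Sox1 differed from that of Sox1ot by 0.090 (-0.11 to 0.29) and that of Sox2 from Sox2ot by 0.16 (-0.059 to 0.39), both within counting error. Gm25239, a miRNA gene model of 86 bases inside the Sox1 exon, was not analysed here. Of the nearest measured genes of the Sox1 locus, Arhgef7, 560076 bases away, had a 1.07-fold ratio (1.02 to 1.13) and Tubgcp3, 214151 bases away, a 0.998-fold ratio (0.898 to 1.11). Atp11b, 1101645 bases from Sox2, was at 0.981-fold, and Gm42692, 4309 bases from Sox2, had 27 reads in cKO and 15 in fl/fl, within counting error. At the Sox3 locus, the antisense gene Gm14662 had 12 reads in cKO and 10 in fl/fl, within counting error.

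**Figure D2:**
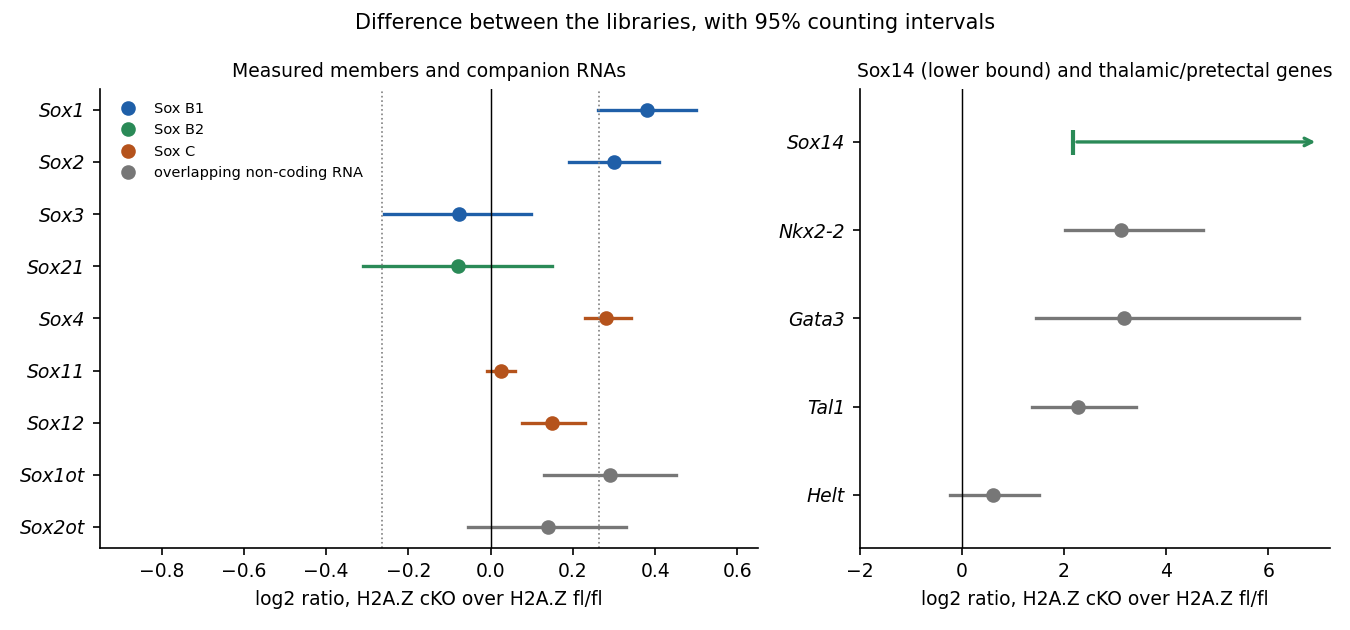
Log2 ratio of H2A.Z cKO over H2A.Z fl/fl with exact 95% counting intervals. On the left are the 7 measured Sox genes and the companions Sox1ot and Sox2ot, with dotted lines at 1.2-fold either way. On the right is the lower bound for Sox14 beside 4 of the 5 measured genes listed for GABAergic rostral thalamus and pretectum. The measured gene not drawn is Lhx5, at 0.37 (-0.023 to 0.77). Sox1, Sox2, Sox4, Sox12 and Sox1ot have intervals above 0, while those of Sox3, Sox21, Sox11 and Sox2ot include it.

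The Sox B2 genes differed from each other. Sox14 had 19 reads in the cKO library, 2.13 CPM, and 0 reads in the fl/fl library. With counting error in both libraries included, it was at least 4.49-fold higher in cKO (lower end of the exact interval). Its level was 6.09 times the floor that 3 reads would give in fl/fl. Sox21, which promotes neurogenesis by countering Sox B1 proteins, had 313 reads in cKO and 318 in fl/fl, or 35.1 and 37.1 CPM. Its log2 ratio was -0.079 (-0.31 to 0.15), so no difference was detectable. The log2 ratio of Sox14 exceeded that of Sox21 by at least 2.23, and by at least 1.38 with intervals widened for 12 comparisons. Sox14 made up 5.72% of the Sox B2 reads in cKO (3.48 to 8.79), while 0 of 318 reads in fl/fl allows a share of up to 0.943% by a floor of 3 reads and up to 1.15% by the exact interval. The summed reads, 332 in cKO and 318 in fl/fl, had a log2 ratio of 0.0055 (-0.22 to 0.23), since Sox21 supplies nearly all of them.

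The depth behind Sox14 is small, and rows with 0 reads in 1 library are listed unevenly in the table. Of the 50 genes listed with 0 reads in the fl/fl library, each had at least 5 reads in the cKO library, and of the 73 listed with 0 in the cKO library each had at least 5 in fl/fl. The table nevertheless lists 710 genes with 1 read in each library, and no source states how rows were chosen. Sox14 was among 6 genes with 0 fl/fl reads that had 19 or more in cKO. The authors' deposited table gives Sox14 an adjusted p of 0.000357 and marks it as significant, the single member so marked. Which test gave that value is not stated, and with 1 library a genotype it compares these libraries. Its nearest measured neighbours were not higher in cKO: Dzip1l, 204850 bases away, was at 0.827-fold and Il20rb, with 12 reads in cKO and 16 in fl/fl, at 0.728-fold, both within counting error. Sox21 shares 713 exon bases with Gm4675, a long non-coding gene of the opposite strand that had 14 reads in cKO and 8 in fl/fl. The other neighbours of Sox21, Gpr180 at 1.14-fold and Abcc4 at 0.862-fold, were within counting error. The strand setting of the counting is not given, so reads in that stretch cannot be told apart.

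Genes of a region where Sox14 is active were read beside it. The list for GABAergic rostral thalamus and pretectum holds 8 genes, 5 of them measured. Since 2 of these were measured through their cKO reads alone, no count or median of the list is given. Gata3, a zinc-finger factor of these neurons, had 23 reads in cKO and 2 in fl/fl, a log2 ratio of 3.18 (1.45 to 6.60). Nkx2-2, a homeobox factor of ventral and thalamic progenitors, had 58 and 6 reads in cKO and fl/fl, a log2 ratio of 3.11 (2.01 to 4.72). Tal1, a helix-loop-helix factor of midbrain and thalamic GABAergic neurons, had 57 in cKO and 11 in fl/fl, at 2.27 (1.37 to 3.40). The other 2 measured genes, named after their values were seen, were within counting error: Helt had 32 in cKO and 20 in fl/fl, at 0.61 (-0.23 to 1.51), and Lhx5 129 in cKO and 96 in fl/fl, at 0.37 (-0.023 to 0.77). Genes of the list that were not measured, also named after their values were seen, were within counting error. Gata2 had 10 reads in cKO and 8 in fl/fl, Pax3 4 and 1, and Tal2 3 and 2. The summed level of this list was 35.4 CPM in cKO and 17 CPM in fl/fl, and none of its 8 genes was at 0 in either library. Gata3 and Nkx2-2 are the 2 that reached the read minimum through their cKO reads, with less than 0.5 of that minimum in fl/fl. Bulk RNA cannot tell more cells of a type from more RNA per cell, and the part of tissue make-up in the Sox14 value was not tested.

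The Sox C genes were graded. Sox4, which with Sox11 drives the neuronal programme of newborn neurons, had 6177 reads in cKO and 4886 in fl/fl, or 692 and 570 CPM. Its log2 ratio was 0.28 (0.23 to 0.34), 21.6% higher in cKO. Sox12, a weaker activator of the same group, had 3083 reads in cKO and 2671 in fl/fl, or 346 and 311 CPM, a log2 ratio of 0.15 (0.075 to 0.23). Sox11 had 15028 reads in cKO and 14200 in fl/fl, or 1685 and 1655 CPM, a log2 ratio of 0.025 (-0.0079 to 0.058). Under the pan-neuronal scaling Sox4 was at 0.10, Sox12 at -0.026, close to 0, and Sox11 at -0.15. Under the radial glia scaling they were at 0.36, 0.23 and 0.11. Whether Sox12 differs thus depends on the scaling, and no intervals were computed for these values. Both scalings were added after the data were seen. The interval of Sox11 ends below the start of those of Sox12 and Sox4.

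The difference between Sox4 and Sox11 was 0.26 on the log2 scale (0.19 to 0.32, and 0.16 to 0.35 when widened for 12 comparisons). Sox12 lay 0.13 above Sox11 (0.043 to 0.21) and Sox4 lay 0.13 above Sox12 (0.038 to 0.22). When widened, the interval between Sox12 and Sox11 ran from 0.0052 to 0.25 and that between Sox4 and Sox12 from -0.0044 to 0.27. Sox11 supplied 61.9% of the Sox C reads in cKO (61.3 to 62.5) and 65.3% in fl/fl (64.6 to 65.9), and Sox4 25.4% (24.9 to 26) and 22.5% (21.9 to 23). The summed reads were 24288 in cKO and 21757 in fl/fl, a log2 ratio of 0.10 (0.076 to 0.13). It was -0.075 under the pan-neuronal scaling and 0.19 under the radial glia scaling. In the annotation 2616 exon bases of Sox4, 54.6% of its length, also belong to Gm26735 on the opposite strand, a gene not in the table analysed here. The strand setting is not given, so reads of the pair cannot be told apart and the Sox4 value is uncertain to that extent.

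The neighbours of the Sox C genes had ratios on both sides of 1. Near Sox12, Nrsn2, which encodes a neuronal membrane protein and lies 16973 bases away, had 86 reads in cKO and 54 in fl/fl, 1.53-fold (1.08 to 2.19). Zcchc3, 13892 bases away on the other side, was at 0.972-fold. The genes flanking Sox4 were the non-coding 2610307P16Rik at 0.962-fold and A330102I10Rik with 28 reads in cKO and 17 in fl/fl, both within counting error. Around Sox11, Rps7 was at 1.03-fold, and Cmpk2, 854429 bases away, had 86 reads in cKO and 57 in fl/fl, 1.45-fold (1.03 to 2.06).

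Set side by side, the summed log2 ratio was highest for Sox B1. It exceeded that of Sox C by 0.16 (0.083 to 0.24) and that of Sox B2 by 0.26 (0.019 to 0.50). The first of these kept its sign when widened for 12 comparisons (0.047 to 0.28) and the second did not (-0.089 to 0.60). Sox B2 and Sox C differed by -0.097 (-0.32 to 0.13), within counting error. Within Sox B1 and Sox C, however, the members spread as far as the groups did, with Sox3 and Sox11 within counting error in groups whose other members were higher.

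Among all measured genes the Sox ratios are moderate in size. None of the 7 measured members was at least 1.5-fold apart, against 3.52% of all 14366 measured genes that were higher and 5.43% that were lower in cKO. At least 1.2-fold higher were 3 of the 7, Sox1, Sox2 and Sox4, against 11.6% of all measured genes, and 0 were 1.2-fold lower, against 15.3%. An interval wholly above 0 was found for 4 of the 7, with Sox12 added, against 12.5% of measured genes, and wholly below 0 for none, against 9.3%. Deep genes give a fairer background, since counting error spreads shallow ones. Among 4586 genes with at least 1000 reads, 4.32% were at least 1.2-fold higher in cKO and 24.5% had an interval above 0, beside 3 and 4 of the 6 Sox genes this deep. In the other direction 1.53% were at least 1.2-fold lower and 7.68% had an interval below 0, beside 0 Sox genes. At 1.5-fold the shares were 0.349% higher and 0.153% lower, beside 0 Sox genes. Sox1 was exceeded by 6.81% of measured genes, Sox2 by 9.65%, Sox4 by 10.6%, Sox12 by 21.4% and Sox11 by 44.9%. Sox3 and Sox21 were exceeded by 65.7% and 65.8%. The median log2 ratio of the 7 was 0.15, against 0.0018 over all measured genes.

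The authors' deposited table gives adjusted p-values below 0.05 for 5 of the 8 genes. In the authors' deposited table these are 9.89e-07 for Sox1, 0.00011 for Sox2, 7.66e-17 for Sox4, 0.0345 for Sox12 and the value given above for Sox14. The same holds for 1464 genes in the authors' deposited table, of which 318 are marked as significant.

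**Figure D3:**
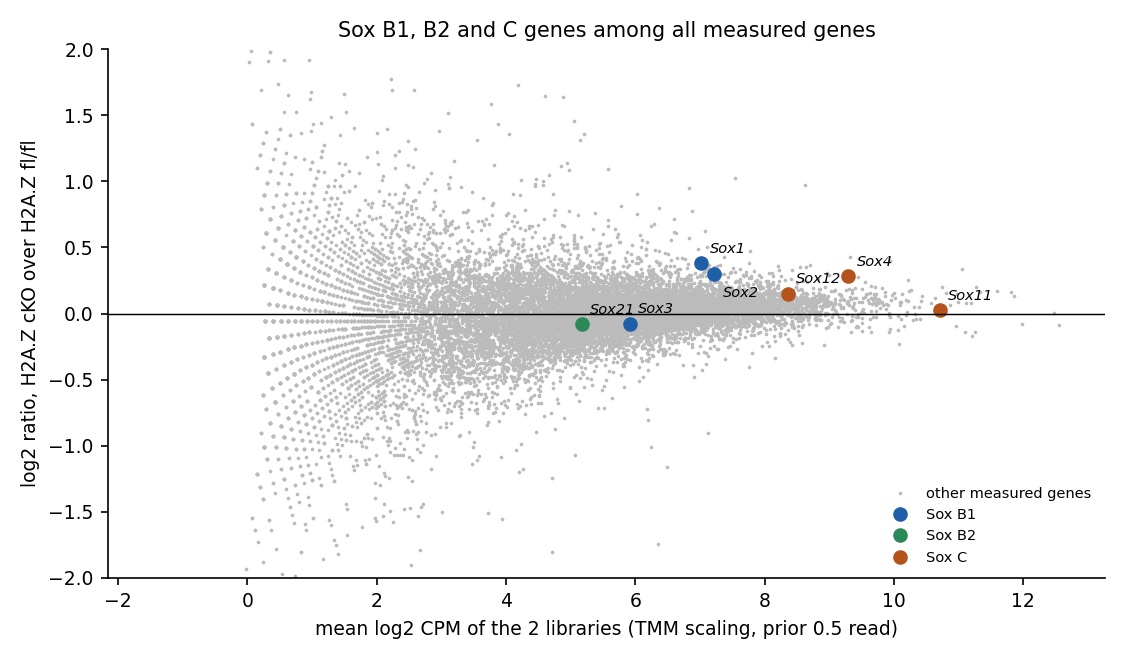
Each point is 1 of the 14366 measured genes, with the mean log2 CPM of both libraries on the horizontal axis and the log2 ratio of H2A.Z cKO over H2A.Z fl/fl on the vertical axis; 109 genes beyond a log2 ratio of 2 either way are not drawn. Sox1, Sox2 and Sox4 lie near the upper edge of genes of like abundance, and Sox3, Sox21 and Sox11 lie near 0.

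Genes known to work with or under Sox proteins did not follow a single direction. The partner list holds POU and other factors that work together with Sox proteins. Of its 12 genes 11 were measured, and 2 were at least 1.5-fold higher in cKO and 0 lower, with a median log2 ratio of 0.074. Over all measured genes the shares were 3.52% and 5.43%, and the count of 2 became 1 by library total or with a prior of 5 reads. Pou2f2, an octamer-binding factor, had 534 reads in cKO and 324 in fl/fl, a log2 ratio of 0.66 (0.46 to 0.87). Pou3f4, a POU factor of striatal and hypothalamic precursors, had 290 in cKO and 185 in fl/fl, at 0.59 (0.32 to 0.87). Pou3f1, a POU factor of deep-layer and other neurons, was at 0.28 (0.079 to 0.49). In the other direction, Pax6, a dorsal progenitor factor that binds DNA with Sox2, was at -0.20 (-0.33 to -0.066), with 907 reads in cKO and 1000 in fl/fl; it was named after its value was seen.

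Genes linked to Sox B1 factors in progenitors were split. This list shares Nes, Notch1, Hes1, Hes5, Fabp7, Lhx2 and Vim with the dorsal radial glia list read below, so the 2 lists are not separate evidence. Of 15 genes 14 were measured, 1 was at least 1.5-fold higher in cKO and 1 lower, beside 3.52% and 5.43% of all measured genes. Of the 14, 7 lay above and 7 below a log2 ratio of 0, with a median of -0.012. Shh, the ventral signal whose forebrain expression depends on Sox B1 proteins, had 31 reads in cKO and 12 in fl/fl, a log2 ratio of 1.28 (0.31 to 2.41). Ccnd1, a G1 cyclin gene, was at 0.43 (0.26 to 0.60) with 678 reads in cKO and 484 in fl/fl. Id3, an inhibitor of helix-loop-helix factors, had 93 in cKO and 145 in fl/fl, at -0.69 (-1.09 to -0.31). Nes, the progenitor filament gene whose enhancer binds Sox2 with POU factors, was at 0.033 (-0.045 to 0.11); it was named after its value was seen.

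Genes linked to Sox C factors lay on both sides of 0. This list overlaps the marker lists read below. It shares Tubb3, Dcx, Map2 and Stmn1 with the pan-neuronal list, Eomes with intermediate progenitors, and Neurod1 and Fezf2 with cortical projection neurons. None of the 10 measured genes was at least 1.5-fold apart, beside 3.52% of all measured genes higher and 5.43% lower. The median log2 ratio was -0.045. The 3 members furthest from 0 are factors of cortical excitatory neurons or their precursors. Neurod1 was at -0.31 (-0.46 to -0.17), Eomes at -0.25 (-0.33 to -0.16) and Fezf2, a deep-layer factor regulated by Sox4 and Sox11, at -0.22 (-0.32 to -0.12). Of the genes used by neurons in general, Tubb3, which encodes a tubulin of neurons, had a log2 ratio of 0.20 (0.17 to 0.23), Stmn1 at 0.13 (0.094 to 0.17) and Dcx at 0.090 (0.060 to 0.12). These last 3 were named after their values were seen.

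Markers of regions and cell types also differed between the libraries. Dorsal radial glia genes, cells in which Sox1, Sox2, Sox3 and Sox21 are active, had a median of -0.082, with 18 of 23 below 0. Of the 23, 8 had an interval wholly below 0 and 1 wholly above, against 9.3% and 12.5% of all measured genes. Among genes with at least 1000 reads, as many of the 23 have, these shares were 7.68% and 24.5%. Their summed level was 4416 CPM in cKO and 4677 CPM in fl/fl. Sox1 and Sox2 thus lay on the other side of 0 from most markers of cortical progenitors. Pan-neuronal genes had a median of 0.21, with 19 of 20 above 0 and summed levels of 16970 CPM in cKO and 15013 CPM in fl/fl. Of all 14366 measured genes, 7241 lay above 0 and 7125 below. The median was -0.089 for intermediate progenitors and 0.0085 for cortical projection neurons.

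Ventral telencephalic genes were higher, with 12 of 22 at least 1.5-fold higher in cKO, 0 lower and a median of 0.63. Over all measured genes 3.52% were higher and 5.43% lower. Their summed level was 2140 CPM in cKO and 1538 CPM in fl/fl. On the list of thalamus, hypothalamus and midbrain 13 genes were measured, 6 of them through their cKO reads alone, so the list is given by its summed level. This was 238 CPM in cKO and 109 CPM in fl/fl. Tcf7l2 alone supplied 114 CPM of it in cKO and 12.9 CPM in fl/fl, so the difference of the sum rests largely on that gene. Genes of this list at 0 in fl/fl, as Sox14 was, include En1, Hmx2, Hmx3 and Shox2. Choroid plexus genes were lower in cKO in their sum, with 28.8 CPM in cKO and 831 CPM in fl/fl. Ttr alone supplied 1.35 CPM of it in cKO and 702 CPM in fl/fl, so this difference too rests largely on a single gene. On the same list Prlr, with 14 reads in cKO and 7 in fl/fl, and Kl, with 7 and 8, were within counting error. Prlr and Kl were named after their values were seen. Meningeal genes had summed levels of 73.3 CPM in cKO and 431 CPM in fl/fl. What part these marker differences have in the Sox values was not tested.

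**Figure D4:**
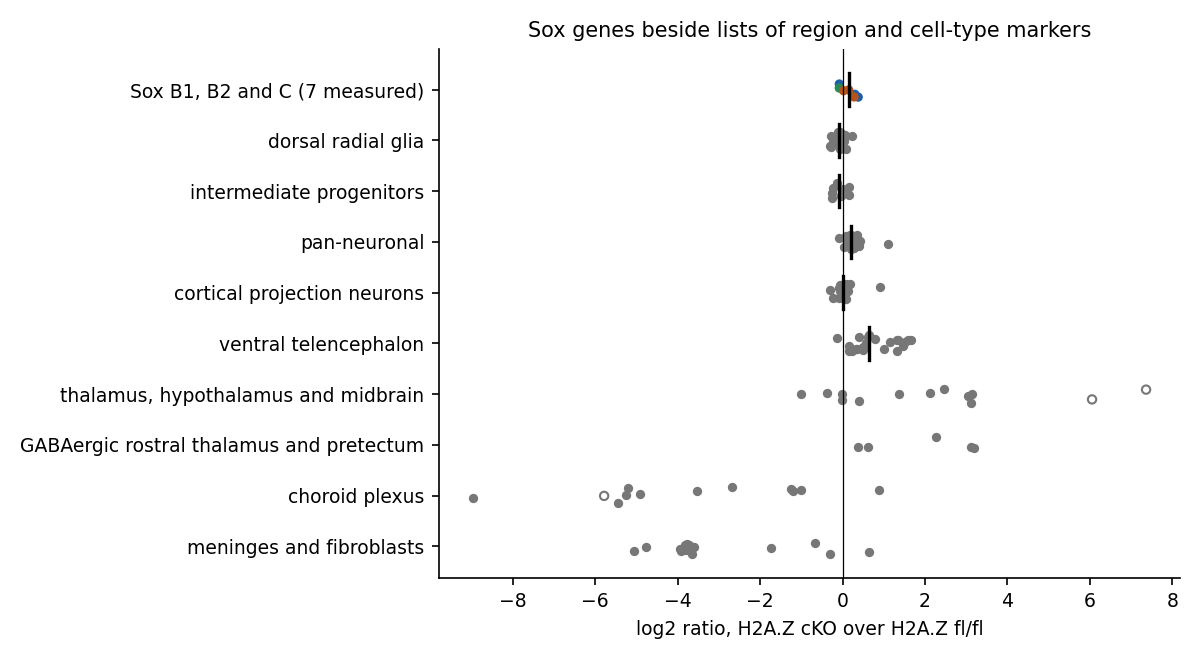
Log2 ratio of H2A.Z cKO over H2A.Z fl/fl for the 7 measured Sox genes (coloured by group as in the plot of their ratios) and for measured genes of 9 marker lists, with a black bar at the median of lists in which each gene has 10 or more reads in both libraries, and open symbols for genes with 0 reads in 1 library, whose place depends on the prior. The Sox genes span -0.079 to 0.38, a narrow range beside the ventral, thalamic, choroid plexus and meningeal lists.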

How the data were processed

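RNA from 1 cKO and 1 fl/fl sample was analysed from 1 deposited table of raw read counts per gene, per the file headers. HTSeq 0.6.0, TopHat2 2.0.12, Bowtie2 2.2.3 and the build mm9 are named in the submitters' processing notes without roles; positions in the table match GENCODE M21 on GRCm38 exactly for 79.2% of 19616 matched genes and for all 8 members. Per the labels' protocols, TruSeq libraries were made from 2 ug of Trizol-extracted RNA. The authors' CPM columns divide each count by 1 constant per library, with 0 entered as 0.5 read. The authors' deposited fold column is the ratio of control CPM to knockout CPM, and their deposited log2 column is its logarithm, so a positive value there means higher in fl/fl. No source states the test behind the authors' deposited p-value columns.

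Counts were scaled on the whole table by TMM (edgeR 4.0.16, R 4.3.3), and log2 ratios of cKO to fl/fl took a prior of 0.5 read. The split of reads between libraries gave exact 95% intervals (Clopper-Pearson). Differences between ratios are conditional odds ratios with exact intervals, also widened for 12 comparisons. No test between genotypes was possible with 1 sample each, and no p-value was computed. Symbols were found for 19616 of 19720 gene IDs. The calculation was tested on simulated counts. Scripts used scipy 1.17.1, numpy 2.4.6 and matplotlib 3.10.9 under Python 3.11.15 with pandas 2.3.3.

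The members and gene lists were chosen with earlier results of these data known. Genes named are the 8 members, H2afz, their nearest measured and overlapping genes, all measured other Sox genes, up to 3 measured genes furthest from 0 in each list, and those said to be named after their values were seen, which include Xist and Kdm5d; some genes that meet this rule are not reported here. Alternatives were other scalings (library total, DESeq2 1.42.0 size factors, upper quartile), a prior of 5 reads, the deposited CPM, other read minimums and folds, and leaving out the most abundant member. The read minimum of 1000 and scaling by the pan-neuronal or radial glia list, for members and group sums, were added after seeing the data.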

Additional observations from a re-analysis of the deposited data

How the results depend on the processing

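Over TMM, library total, DESeq2 size factors, upper quartile and the deposited CPM, the log2 ratio ran from 0.34 to 0.40 for Sox1, 0.27 to 0.32 for Sox2, 0.25 to 0.31 for Sox4, 0.12 to 0.17 for Sox12, -0.11 to -0.055 for Sox3 and -0.11 to -0.056 for Sox21. By library total Sox11 was at -0.0096 and summed Sox C at 0.067, and by the deposited CPM at -0.0095 and 0.067. Without its most abundant member Sox C was at 0.24, and Sox B2, then Sox14 alone, at a fitted 5.23 that depends on the prior and is 2.21 with a prior of 5 reads. Scaling by the summed pan-neuronal list moves the median of all measured genes to -0.18. Sox12 was then at -0.026, close to 0 and without a computed interval. Under it Sox1 was at 0.20, Sox2 at 0.12, Sox4 at 0.10, Sox11 at -0.15 and summed Sox B1 at 0.087, and summed Sox C reversed to -0.075. Scaling by the summed radial glia list moves that median to 0.085, with Sox4 at 0.36, Sox11 at 0.11, Sox12 at 0.23, summed Sox B1 at 0.35 and summed Sox C at 0.19. The cause was not tested. Of the 80 values of members and groups recomputed, the other 62 stayed within their counting intervals. Partner factors at least 1.5-fold higher numbered 1 by library total or a prior of 5 reads and 0 at 2-fold, against 2; of 90 recomputed list counts 16 moved. With no read minimum 1 member, Sox14, is at least 1.5-fold higher. No paired analysis was possible because each genotype has 1 sample. Differences between ratios of members do not depend on scaling. Depth limits Sox14 most, at 19 reads.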

Other observations

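The other Sox groups held 1 gene whose interval lay above 0 and none below, beside 12.5% and 9.3% of all measured genes. Of 12 genes on that list, 10 are in the table and 9 were measured. None of them was at least 1.5-fold apart, beside 3.52% of all measured genes higher and 5.43% lower. Their median log2 ratio was 0.0085. Sox8, a Sox E gene of glial precursors, had 329 reads in cKO and 232 in fl/fl, a log2 ratio of 0.45 (0.20 to 0.70). Its relative Sox9, a radial glia and astrocyte factor, had 854 in cKO and 885 in fl/fl, at -0.11 (-0.25 to 0.029), and Sox10, of oligodendrocyte precursors, had 25 in cKO and 19 in fl/fl. The Sox D genes were within counting error: Sox5 was at 0.0085 (-0.070 to 0.087), Sox6 at -0.069 (-0.19 to 0.050) and Sox13 at 0.018 (-0.28 to 0.32). The Sox F genes of endothelium were within counting error, with Sox18 at -0.38 (-0.83 to 0.072), Sox7 at -0.33 (-0.91 to 0.25) and Sox17 at 0.090 (-0.59 to 0.77). The endothelial markers, a list that also holds these 3 genes, had summed levels of 223 CPM in cKO and 261 CPM in fl/fl.

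Genes whose deposited Pfam entry is an HMG box but which are not Sox genes were also looked at, after the values of the Sox genes were seen. Tox2, an HMG-box factor of the Tox family, had 309 reads in cKO and 199 in fl/fl, a log2 ratio of 0.58 (0.32 to 0.84). Hmg20b, a subunit of a histone demethylase complex, had 287 in cKO and 367 in fl/fl, at -0.41 (-0.64 to -0.18). The abundant chromatin protein genes Hmgb1 and Hmgb2 were at -0.057 (-0.14 to 0.023) and 0.085 (-0.020 to 0.19), within counting error.

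The remaining cell-type lists were read at 1.5-fold, beside 3.52% of all measured genes higher and 5.43% lower. Oligodendrocyte lineage genes, a list that shares Nkx2-2 and Sox10 with those above, had summed levels of 127 CPM in cKO and 107 CPM in fl/fl. Of 7 measured astrocyte genes, Sox9 among them, 0 were higher or lower, with a median of -0.12. Microglia and macrophage genes had 2 of 8 lower and 0 higher (median -0.34), and erythroid genes 1 of 8 lower and 0 higher (median -0.28).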
